A study of Homo sapiens with 6 samples.

Results

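The 9 genes described here are grouped under the methionine cycle and the supply of the methyl donor S-adenosylmethionine (SAM): MAT2A, MAT2B, NNMT, AHCY, AHCYL1, AHCYL2, MTR, MTRR and MTAP. Of these, NNMT uses SAM, and AHCYL1 and AHCYL2 are included as relatives of AHCY in sequence. All 9 were chosen by name and function, with earlier results of these data known, from 62656 genes in the tables, of which 19029 were tested. Of the 9, 8 passed the filter on low counts, and the ninth, MTAP, had almost no reads. RNA was measured in OVCAR5, an established human ovarian carcinoma line, after 3 days with NTX301 at 100 nM (3 libraries) or with DMSO, the solvent (3 libraries). NTX301 is a DNA hypomethylating drug per the labels, and all libraries came from the same line kept in RPMI-1640 medium with serum. Nothing in the labels tells whether the libraries of a group are separate cultures, and the p-values measure only the spread between these libraries.

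Cells join methionine and ATP into SAM, the donor for nearly every methylation of DNA, RNA, protein and small molecules. Each transfer leaves S-adenosylhomocysteine (SAH), which inhibits methyltransferases until it is split into adenosine and homocysteine, and homocysteine is then remade into methionine with a methyl group from folate, on an enzyme that carries cobalamin. A side branch turns SAM into polyamines and a thio-sugar by-product that MTAP starts to recycle to methionine. DNA methyltransferases draw on the same SAM.

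The MAT2A message is itself known to respond to SAM: METTL16, an RNA methyltransferase, binds hairpins in its 3′ untranslated region. These sites are shown because the transcripts of MAT2A that hold and lack them differed between the groups, as described below for the transcript mix. The motifs TACAGAGAA and TACAGAAAA, searched on the transcript strand only, occur 6 times in MAT2A-201 (GENCODE 29, GRCh38, plus strand), all in the last exon (chromosome 2, 85543670 to 85545280) and between 40 and 1350 bases after the stop codon. Each site is given 5′ to 3′ with the motif in capitals:
Site 1, chr2:85543802-85543830: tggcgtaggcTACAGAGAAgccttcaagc
Site 2, chr2:85544589-85544617: tgtgatgtcaTACAGAGAAgtcacagggc
Site 3, chr2:85544774-85544802: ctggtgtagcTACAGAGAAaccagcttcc
Site 4, chr2:85544889-85544917: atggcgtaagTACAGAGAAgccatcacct
Site 5, chr2:85545004-85545032: caaggtgtccTACAGAAAAaccttgggtt
Site 6, chr2:85545112-85545140: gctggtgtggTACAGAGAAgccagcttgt
Of 21323 protein-coding transcripts of 2000 to 4000 bases, 5.49% held at least 1 of these motifs and 1 transcript held 6 or more. MAT2A-201, of 2819 bases and with 6 motifs, lies in this range, so the count is no independent background for it. A match describes these letters only and does not show binding in these cells.

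The 6 libraries held between 22131175 and 25743732 estimated counts. NTX301 and DMSO libraries separated on the first principal component of log2 CPM (counts relative to a library total that TMM factors scale; 86.5% of the variance), and DMSO replicate 3 stood apart from the other DMSO libraries on the second (4.31%). Of all tested genes, 70.5% were called at an adjusted p under 0.05 (edgeR), with 35.4% higher and 35.1% lower in NTX301 libraries, so a call by itself sets no gene apart here. TMM factors set the typical gene to no change. Without them, the median log2 fold change of all genes was 0.21, against -0.00 with TMM, and 65.0% of calls were rises. All fold changes given with TMM factors are thus set against the typical gene, and errors of CPM and TPM levels and of their ratios are SDs over 3 libraries. Epithelial markers were all present, with a summed level of 2110 to 2235 CPM in NTX301 libraries against 3966 to 4257 CPM in DMSO libraries, most of it KRT8 and KRT18. Of these 6 markers EPCAM, KRT8, KRT18 and KRT19 fell and CDH1 and KRT7 rose (edgeR), KRT7 to 234 CPM with NTX301, against 97.8 CPM with DMSO. Ovarian carcinoma markers summed to 14.5 to 16.3 CPM with NTX301 and 15.5 to 19.5 CPM with DMSO. PAX8 and MSLN were detected and not called, and MUC16 fell (edgeR), to 0.71 CPM with NTX301 against 3.55 CPM with DMSO. SOX17 had no count, ESR1 was too low to be tested, and WT1 was at or under the limit of 3 counts per group with DMSO. The 8 fibroblast markers summed to 63.6 to 64.4 CPM with NTX301 and 16.8 to 18.1 CPM with DMSO, most of it COL1A1. COL1A1, COL3A1, PDGFRA and PDGFRB rose and LUM fell (edgeR), while DCN, FAP and THY1 were at or under that limit with DMSO. PDGFRA averaged 5.16 CPM with NTX301 against 0.65 CPM with DMSO, and PDGFRB 8.40 CPM with NTX301 against 1.08 CPM with DMSO. The leukocyte list summed to 20.1 to 21.3 CPM with NTX301 and 15.6 to 16.5 CPM with DMSO, most of it CD14. CD14 rose and LYZ fell (edgeR), with CD3E at or under the limit in both groups. The endothelial list summed to 6.02 to 6.57 CPM with NTX301 and 4.79 to 5.44 CPM with DMSO, where VWF and CDH5 rose and PECAM1 was not called (edgeR). The part of these markers in the changes below was not tested.

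Of the 8 tested genes, 1 rose (AHCYL2), 4 fell (MAT2A, NNMT, AHCY and MTR) and 3 were not called (MAT2B, AHCYL1 and MTRR). Their median log2 fold change was -0.16, against -0.00 for all tested genes. Against a background of 35.1% of genes that fell, the 4 of 8 members that fell are a count over few genes and mark nothing particular to them. CPM values of the groups did not overlap for 5 of the 8, and for 73.7% of all tested genes. Without a scaling factor 4 members rose and 3 fell, and the median turned to 0.05.

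**Figure D1:**
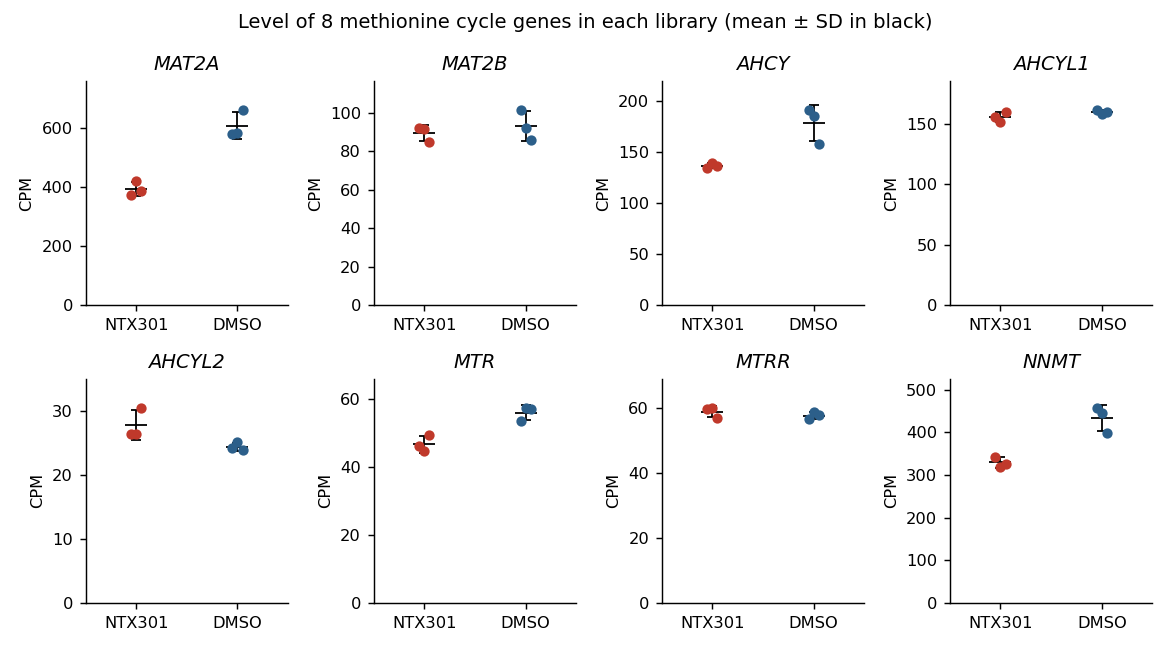
Level of the 8 tested genes in CPM, with NTX301 libraries on the left and DMSO libraries on the right of each panel; points are single libraries and black bars are mean ± SD (n = 3 each). MAT2A, NNMT, AHCY and MTR lie lower in every NTX301 library than in any DMSO library, AHCYL2 lies higher, and MAT2B, AHCYL1 and MTRR overlap.

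MAT2A encodes the catalytic subunit of the SAM synthetase of tissues other than adult liver (ENSG00000168906.13, chromosome 2, 85539165 to 85545280, GRCh38). It had 372, 420 and 387 CPM in NTX301 libraries, against 578, 582 and 659 CPM in DMSO libraries. Every NTX301 library was below every DMSO library. The fall was 1.54-fold (log2 fold change -0.63 ± 0.06 SE, adjusted p = 1.7e-06, edgeR quasi-likelihood test), the largest change among the tested members by log2 fold change. It was still called without a scaling factor (-0.42, adjusted p = 6.1e-05, edgeR) and without DMSO replicate 3, the library with the highest level (-0.58, adjusted p = 9.9e-07, edgeR). In bulk RNA, fewer cells that express a gene and less of its RNA per cell cannot be told apart. The estimated counts of MAT2A were not whole numbers in any library, so some reads were divided between genes, and GGCX overlaps it on the opposite strand.

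MAT2B encodes the regulatory subunit that binds the MAT2A enzyme (ENSG00000038274.18, chromosome 5, 163503114 to 163519336). Its level was 92.2, 91.3 and 84.7 CPM with NTX301, and 101, 92.1 and 85.8 CPM with DMSO. The groups overlapped and the gene was not called (log2 fold change -0.06 ± 0.06 SE, adjusted p = 0.39, edgeR). With unscaled libraries its sign turned, and it was called higher (0.15, adjusted p = 0.028, edgeR). Per length, the MAT2A level divided by the MAT2B level was 2.94, 3.24 and 3.25 in NTX301 libraries, against 4.19, 4.74 and 5.91 in DMSO libraries. This ratio of TPM values (a relative level per length) within a library does not depend on library scaling, and its groups did not overlap. For this and the later ratios, the share of other gene pairs without overlap was not computed. Among single genes, CPM values of the groups did not overlap for 73.7%.

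MAT1A, the catalytic subunit of the liver enzyme, was close to absent, with 21 counts over the NTX301 libraries and 6 over the DMSO libraries, too few to be tested. BHMT, which remakes methionine from betaine in liver and kidney, had 7 counts with NTX301 and 5 with DMSO. Of the 7 genes of this liver-type list 2 were tested and both fell. GAMT, which makes creatine with SAM, averaged 15.4 ± 1.24 CPM with NTX301 and 28.6 ± 0.97 CPM with DMSO (SD, n = 3 each). PEMT, which methylates phosphatidylethanolamine, averaged 8.22 ± 1.25 CPM with NTX301 and 14.6 ± 1.14 CPM with DMSO (SD, n = 3 each).

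**Figure D2:**
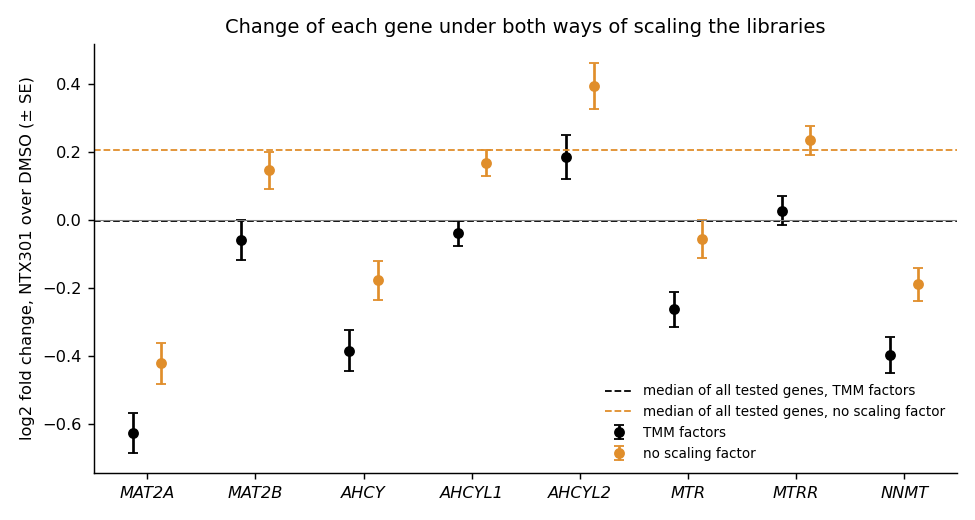
Log2 fold change ± SE of each tested gene, NTX301 over DMSO, with TMM factors in black and without a scaling factor in orange; dashed lines are the medians of all tested genes. MAT2A, AHCY and NNMT lie below 0 under both, MTR lies near 0 without a scaling factor, and MAT2B and AHCYL1 turn from below to above 0.

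RSEM, the program whose output format the tables have, weights the length of a gene by the abundance of its transcripts, so this length moves when the transcript mix moves. The weighted length of MAT2A was 2667, 2672 and 2666 bases in NTX301 libraries, against 2578, 2562 and 2547 bases in DMSO libraries. The groups did not overlap, and the mean was 106 bases longer with NTX301. The exact two-sided permutation test gave p = 0.1, the smallest that 3 against 3 libraries allow, and 0.4 after adjustment over 8 genes. Groups of weighted lengths did not overlap in 26.1% of the 12019 genes with several lengths and were longer with NTX301 in 9.59%. The difference of MAT2A, 4.06% of its length, was larger in size than in 73.1% of them.

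MAT2A has 2 transcripts in the tables, and both are found in GENCODE 29. Any further MAT2A transcripts of GENCODE 29 were not examined, so the mix below covers only these 2. MAT2A-201, of 2819 bases in GENCODE 29, has 9 exons and the 6 METTL16 motifs. MAT2A-202, of 1927 bases, has 8 exons and begins at another first exon (85539642 to 85540000). It runs 574 bases into the last intron of 635 bases, ends there without the last exon, and holds 0 of the motifs. Solving for the mix that gives each weighted length, the short transcript made up 17.0%, 16.4% and 17.2% of MAT2A in NTX301 libraries, against 27.0%, 28.8% and 30.5% in DMSO libraries. All NTX301 shares lay below all DMSO shares.

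Set against the gene's TPM, the short transcript came to 48.5 ± 2.40 TPM with NTX301 and 116 ± 19.02 TPM with DMSO (SD, n = 3 each), a ratio of 0.418. The long transcript came to 239 ± 14.5 TPM with NTX301 and 285 ± 22.8 TPM with DMSO (SD, n = 3 each), a ratio of 0.839. Both transcripts were thus lower in every NTX301 library than in any DMSO library on the TPM scale, the short one by the larger factor. The tables list MAT2A-201 in a newer version than GENCODE 29, whose length was not at hand, so these shares are estimates. The ratio of the long transcript's share, 1.17 for NTX301 over DMSO, is the same for any length of it. The weighted length alone does not tell reads of the other first exon from reads of the last intron.

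**Figure D3:**
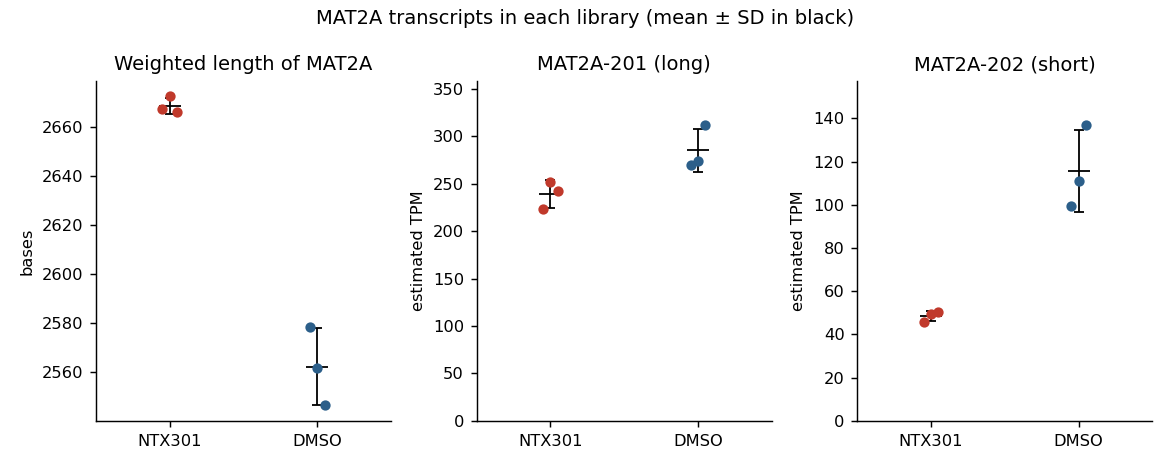
Weighted length of MAT2A in bases, on an axis that does not start at 0, and the estimated TPM of its long and short transcripts, with NTX301 left of DMSO; points are libraries and black bars are mean ± SD (n = 3 each). The NTX301 libraries have the longer weighted length and average 48.5 TPM of the short transcript, against 116 TPM in DMSO libraries.

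Among 9 genes that act on the MAT2A message, 3 rose and 3 fell. METTL16, named for its role and not for its change, averaged 37.2 ± 0.85 CPM with NTX301 and 36.5 ± 1.12 CPM with DMSO and was not called (log2 fold change 0.03 ± 0.05 SE, adjusted p = 0.59, edgeR). CPSF6, a subunit of the cleavage factor CFIm, averaged 76.1 ± 2.71 CPM with NTX301 against 110 ± 2.73 CPM with DMSO, and CPSF7, the alternative subunit, 145 ± 1.47 CPM with NTX301 against 118 ± 1.09 CPM with DMSO. CPSF6 fell and CPSF7 rose, and FTO, an RNA demethylase, fell to 36.8 ± 1.56 CPM with NTX301, against 58.0 ± 1.93 CPM with DMSO. Without a scaling factor 6 of the 9 rose and 3 fell, and the median of this list turned from -0.02 to 0.19.

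Genes whose profile over the 6 libraries lay nearest to that of MAT2A were EPM2AIP1, NR2C1 and BCL2L2, at distances of 0.077, 0.080 and 0.080 between centred log2 CPM values. Their log2 fold changes were -0.59, -0.59 and -0.65. These distances rest on 6 libraries in 2 groups.

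NNMT encodes the enzyme that methylates nicotinamide with SAM (ENSG00000166741.8, chromosome 11, 114257787 to 114313285). It had 343, 319 and 327 CPM in NTX301 libraries, against 457, 445 and 399 CPM in DMSO libraries. All NTX301 libraries lay below all DMSO libraries, of which replicate 3 was the lowest. NNMT fell 1.32-fold (log2 fold change -0.40 ± 0.05 SE, adjusted p = 3.5e-05, edgeR), and its log2 fold change was -0.47 without DMSO replicate 3. The fall was called without a scaling factor too (-0.19, adjusted p = 0.0050, edgeR). Per length, its level was 342 ± 15.1 TPM with NTX301 and 390 ± 19.8 TPM with DMSO (SD, n = 3 each). MAT2A, the other most abundant member on this scale, averaged 288 ± 16.7 TPM with NTX301 and 401 ± 41.6 TPM with DMSO. The NNMT level divided by the MAT2A level, both in TPM, was 1.20 ± 0.11 with NTX301 and 0.98 ± 0.14 with DMSO, and the groups overlapped. Divided by the AHCY level it was 2.74 ± 0.15 with NTX301 and 2.77 ± 0.08 with DMSO, and the groups overlapped too.

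The other small-molecule methyltransferases gave 1 rise and 3 falls among 8 tested genes, and 2 rises and 3 falls without a scaling factor. TPMT, which methylates thiopurine drugs, rose to 34.5 ± 1.38 CPM with NTX301, against 23.7 ± 1.84 CPM with DMSO. Genes of nicotinamide use and NAD synthesis gave 4 rises and 6 falls among 11 tested genes, under TMM and without a scaling factor alike. NAMPT, which competes with NNMT for nicotinamide, rose to 265 ± 10.7 CPM with NTX301, against 158 ± 5.28 CPM with DMSO. NAPRT and NADSYN1, which make NAD from nicotinic acid, fell, with log2 fold changes of -1.08 ± 0.04 and -1.39 ± 0.06 SE.

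AHCY encodes the hydrolase that splits SAH (ENSG00000101444.13, chromosome 20, 34280268 to 34311802). Its level was 135, 139 and 137 CPM in NTX301 libraries, against 191, 185 and 158 CPM in DMSO libraries. The NTX301 libraries lay close together and below all DMSO libraries, of which replicate 3 was again the lowest. AHCY fell 1.30-fold (log2 fold change -0.38 ± 0.06 SE, adjusted p = 0.00014, edgeR). Its log2 fold change was -0.48 without DMSO replicate 3 and -0.18 without a scaling factor (adjusted p = 0.016, edgeR). On the TPM scale the groups overlapped, at 122, 125 and 129 TPM with NTX301 against 147, 147 and 128 TPM with DMSO. Its counts were not whole in any library, so reads shared with other genes were divided by estimate, and ENSG00000250917 overlaps AHCY on the same strand.

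AHCYL1 and AHCYL2 are related to AHCY in sequence but are known as regulators of ion channels and calcium release and not as SAH hydrolases. AHCYL1 (ENSG00000168710.18, chromosome 1, 109984686 to 110023741) had 156, 152 and 160 CPM with NTX301, and 161, 158 and 160 CPM with DMSO. The groups overlapped and it was not called (log2 fold change -0.04 ± 0.04 SE, adjusted p = 0.37, edgeR), while without a scaling factor it was called higher (0.17, adjusted p = 0.0016, edgeR). Its weighted length was 3917 ± 6.27 bases with NTX301 and 3879 ± 9.28 bases with DMSO, and here too the groups did not overlap (exact permutation p = 0.1, n = 3 each). The weighted lengths of the other 6 tested members overlapped between the groups.

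AHCYL2 (ENSG00000158467.17, chromosome 7, 129225023 to 129430211) had the lowest level per length of the AHCY family, 10.8 ± 1.11 TPM with NTX301 and 8.14 ± 0.31 TPM with DMSO (SD, n = 3 each). It had 26.5, 26.5 and 30.5 CPM in NTX301 libraries, against 24.2, 25.1 and 24.0 CPM in DMSO libraries. The groups did not overlap, with NTX301 replicate 3 the highest, and AHCYL2 rose 1.14-fold (log2 fold change 0.19 ± 0.06 SE, adjusted p = 0.022, edgeR). This call was lost in DESeq2 (adjusted p = 0.054), without a filter on low counts (adjusted p = 0.062, edgeR) and when any of 3 libraries was left out. Without NTX301 replicate 3 the log2 fold change was 0.11 (adjusted p = 0.097, edgeR), without DMSO replicate 1 it was 0.17 (adjusted p = 0.070, edgeR) and without DMSO replicate 3 it was 0.16 (adjusted p = 0.071, edgeR). Per length, AHCY stood to AHCYL1 as 1.63 ± 0.06 with NTX301 and 2.04 ± 0.20 with DMSO, and AHCYL1 to AHCYL2 as 7.14 ± 0.40 with NTX301 and 8.49 ± 0.31 with DMSO. Neither ratio overlapped between the groups.

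Of the 10 genes listed as partners of AHCYL1, 9 fell and none rose, while 35.1% of all tested genes fell and 35.4% rose. The list is short and was written with earlier results of these data known, so this count was not tested. SLC4A4, a sodium bicarbonate cotransporter that AHCYL1 activates, fell to 12.6 ± 1.30 CPM with NTX301, against 87.0 ± 3.05 CPM with DMSO (log2 fold change -2.79 ± 0.07 SE). With unscaled libraries 5 of the 10 fell and 1 rose. The genes that clear adenosine and homocysteine from SAH gave 3 rises and 2 falls among 7 tested, and 5 rises and 1 fall without a scaling factor. PNP, which acts on inosine after adenosine is deaminated, rose to 81.6 ± 2.32 CPM with NTX301, against 35.8 ± 2.40 CPM with DMSO.

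Homocysteine can also leave the cycle by transsulfuration, where 5 of 7 tested genes fell and none rose. Of all tested genes, 35.1% fell and 35.4% rose, and this count over few genes was not tested. CBS, which joins homocysteine to serine, fell to 37.0 ± 1.46 CPM with NTX301, against 56.8 ± 0.46 CPM with DMSO. SUOX, the sulfite oxidase at the end of that route, fell to 9.33 ± 0.57 CPM with NTX301, against 21.6 ± 1.41 CPM with DMSO. The median log2 fold change of the list was -0.45, and -0.25 without a scaling factor, where 3 fell and 1 rose.

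MTR encodes methionine synthase, which moves the methyl group of folate to homocysteine (ENSG00000116984.15, chromosome 1, 236795281 to 236903981). Its level was 46.1, 44.6 and 49.3 CPM in NTX301 libraries, against 53.5, 57.4 and 57.0 CPM in DMSO libraries. The groups did not overlap, and MTR fell 1.20-fold (log2 fold change -0.26 ± 0.05 SE, adjusted p = 0.00065, edgeR). That call rests on the scaling: without TMM factors the log2 fold change was -0.055 (adjusted p = 0.38, edgeR), and on log2(TPM + 1) it was -0.041 (adjusted p = 0.69, limma). On the TPM scale the groups overlapped, at 9.20, 10.3 and 11.2 TPM with NTX301 against 10.1, 10.8 and 10.7 TPM with DMSO.

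MTRR encodes the reductase that restores the cobalamin of methionine synthase (ENSG00000124275.15, chromosome 5, 7851186 to 7906025). It had 59.8, 60.2 and 57.0 CPM with NTX301, and 56.6, 59.0 and 57.9 CPM with DMSO. The groups overlapped and MTRR was not called (log2 fold change 0.03 ± 0.04 SE, adjusted p = 0.56, edgeR), while without a scaling factor it was called higher (0.24, adjusted p = 0.00035, edgeR). FASTKD3 overlaps it on the opposite strand. Per length, MTRR stood to MTR as 3.84, 3.45 and 3.14 in NTX301 libraries, against 2.84, 2.83 and 2.88 in DMSO libraries. All NTX301 ratios were higher than all DMSO ratios, whatever the scaling of the libraries.

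The cofactors of this pair come from folate and cobalamin. Of 22 tested genes of the folate cycle 10 rose and 10 fell. FPGS, which traps folates in the cell by adding glutamates, fell to 30.1 ± 1.14 CPM with NTX301, against 64.7 ± 3.38 CPM with DMSO, and GGH, which removes them, rose to 109 ± 6.98 CPM with NTX301, against 51.1 ± 7.64 CPM with DMSO. Of 12 tested genes of cobalamin supply 3 rose and 6 fell. LMBRD1, which helps cobalamin out of the lysosome, fell to 20.2 ± 1.67 CPM with NTX301, against 54.9 ± 0.69 CPM with DMSO. MMADHC, which directs cobalamin to methionine synthase or to the mitochondrion, rose to 180 ± 7.93 CPM with NTX301, against 144 ± 9.87 CPM with DMSO. With unscaled libraries 11 folate genes rose and 6 fell, and 3 cobalamin genes rose and 5 fell.

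MTAP encodes the phosphorylase that begins the return of methylthioadenosine, the by-product of polyamine synthesis, to methionine (ENSG00000099810.21, chromosome 9, 21802543 to 21937651). It had 0 counts in each of the 3 NTX301 libraries, against 2, 0 and 0 counts in the DMSO libraries. Both groups were at or under the limit of 3 counts over a group, which is 0.0395 CPM with NTX301 and 0.0439 CPM with DMSO and covers counting error only, so no fold is given. The other 8 members had between 24.0 CPM (AHCYL2, DMSO replicate 3) and 659 CPM (MAT2A, DMSO replicate 3) in single libraries.

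MTAP lies beside the cell cycle inhibitor genes CDKN2A and CDKN2B at 9p21. These had 0 counts in every library, and the antisense RNA gene CDKN2B-AS1 had 0 with NTX301 and 3.29 estimated counts with DMSO. Between the end of MIR31HG (21559669) and the start of DMRTA1 (22446841), the nearest genes other than pseudogenes on either side with at least 10 counts in every library, lie 887 kb with 13 annotated genes other than pseudogenes. They held 0 counts in all with NTX301 and 5.29 with DMSO, and 11 of the 13 had none in any library. The stretch also holds 5 pseudogenes, and reads were assigned to 3 of them: KHSRPP1, between MIR31HG and MTAP, had 21, 15 and 16 counts in NTX301 libraries, against 14, 11 and 14 in DMSO libraries. UBA52P6, beyond CDKN2B, had 10.72 estimated counts over the NTX301 libraries and 5.7 over the DMSO libraries, and H3P30 had 1 with NTX301 and 0 with DMSO. They are processed pseudogenes, that is, copies of the messages of genes elsewhere, and whether their reads came from those genes was not tested. Outside this stretch, DMRTA1 averaged 6.04 ± 0.09 CPM with NTX301 and 6.11 ± 0.83 CPM with DMSO, and KLHL9 fell to 20.7 ± 0.91 CPM with NTX301, against 31.7 ± 1.17 CPM with DMSO. FOCAD fell as well (log2 fold change -0.42), and IFNE had 20 counts over the NTX301 libraries against 107 over the DMSO libraries. Of 10 genes listed as MTAP neighbours 4 were tested, of which 3 fell and 0 rose, with and without a scaling factor. Of all tested genes, 35.1% fell and 35.4% rose, and this count over few genes was not tested. DNA copies were not measured in these files, so a missing gene and a silent gene cannot be told apart.

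**Figure D4:**
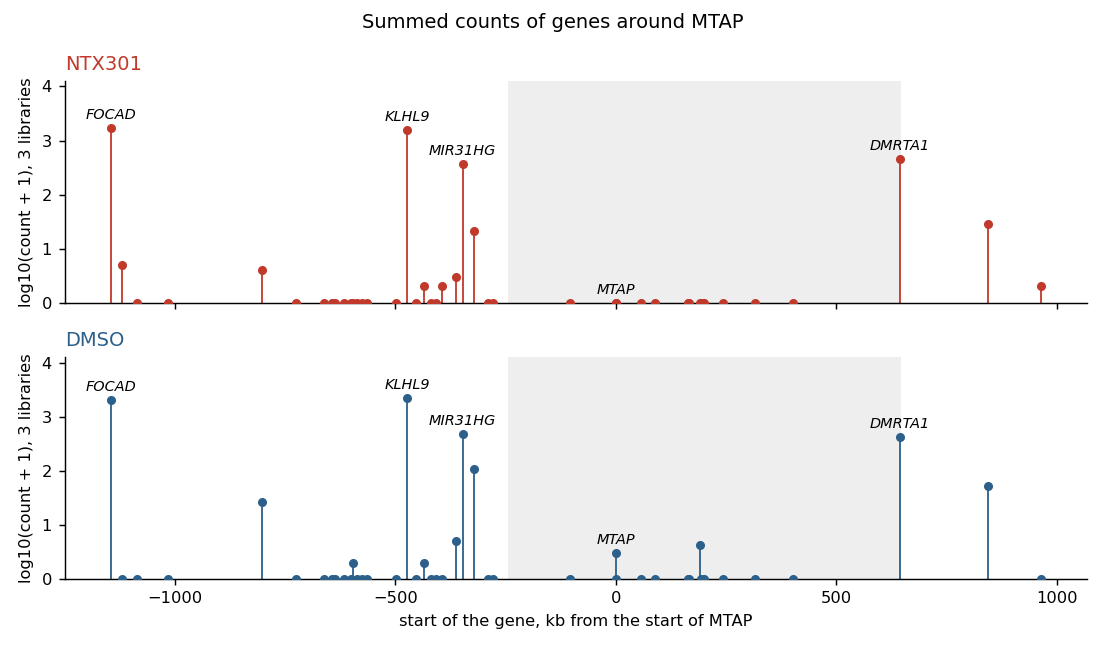
Summed counts over 3 libraries, as log10(count + 1), of annotated genes other than pseudogenes around MTAP, against the distance of their start from the start of MTAP in kb, with NTX301 above DMSO. The grey band is the 887 kb between MIR31HG and DMRTA1, where the 13 genes drawn held 0 counts with NTX301 and 5.29 with DMSO; the 5 pseudogenes there are not drawn.

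The MTAP promoter is shown because the gene stayed without reads under a drug that lowers DNA methylation. Its 300 bases around the start (RefSeq, GRCh38.p14, plus strand, 5′ to 3′, CG dinucleotides in capitals) hold 15 CG on 1 strand, close to the median of 14 over 35116 promoters of that length.
MTAP promoter, chr9:21802386-21802685: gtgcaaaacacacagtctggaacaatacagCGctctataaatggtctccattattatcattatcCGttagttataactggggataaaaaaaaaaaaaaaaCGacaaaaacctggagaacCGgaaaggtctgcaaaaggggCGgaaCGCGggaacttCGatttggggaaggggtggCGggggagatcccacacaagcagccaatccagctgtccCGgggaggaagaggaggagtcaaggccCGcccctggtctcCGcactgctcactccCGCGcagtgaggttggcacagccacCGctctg
Methylation was not measured in these files, so nothing is known here of these CG in OVCAR5.

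The later enzymes of the salvage route were expressed although MTAP was not. All 7 were tested, 4 rose and 3 fell. ADI1, the dioxygenase near the end of the route, rose to 116 ± 2.91 CPM with NTX301, against 74.2 ± 2.07 CPM with DMSO, and MRI1, which acts directly after MTAP, fell to 20.6 ± 0.68 CPM with NTX301, against 33.8 ± 1.11 CPM with DMSO. With unscaled libraries 4 rose and 2 fell.

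Polyamine synthesis is the source of MTAP's substrate. The list read here covers the breakdown and control of polyamines besides their synthesis. Among its 13 tested genes 5 rose and 6 fell, and without a scaling factor 7 rose and 3 fell. Of the synthesis enzymes, AMD1 and SRM rose and SMS fell (log2 fold changes 0.46 ± 0.04, 0.68 ± 0.05 and -0.16 ± 0.04 SE). ODC1, the decarboxylase that begins polyamine synthesis, rose to 297 ± 13.1 CPM with NTX301, against 105 ± 5.33 CPM with DMSO. OAZ1, the antizyme that sends ODC1 protein to degradation, fell to 273 ± 9.59 CPM with NTX301, against 496 ± 29.4 CPM with DMSO. SMOX, which oxidises spermine, rose, and SAT1, which acetylates spermidine and spermine, fell (log2 fold changes 1.25 ± 0.05 and -0.84 ± 0.04 SE).

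On the supply side, 3 of 10 tested transporters of methionine and SAM rose and 3 fell. SLC43A2, a carrier of large neutral amino acids, fell to 66.1 ± 0.84 CPM with NTX301, against 159 ± 1.80 CPM with DMSO. SLC3A2, the chain that brings such carriers to the cell surface, rose to 371 ± 4.43 CPM with NTX301, against 235 ± 13.7 CPM with DMSO. SLC25A26, which takes SAM into mitochondria, fell to 14.8 ± 0.48 CPM with NTX301, against 20.7 ± 1.29 CPM with DMSO. On the demand side, 5 of 8 subunits of the m6A writer complex rose and 1 fell, and 6 of 12 tested genes of arginine methylation rose and 5 fell. RIOK1, an adaptor of PRMT5, rose to 30.1 ± 0.86 CPM with NTX301, against 14.5 ± 0.59 CPM with DMSO, and WDR77, its partner subunit, to 53.2 ± 1.57 CPM with NTX301, against 32.7 ± 0.84 CPM with DMSO. With unscaled libraries these lists gave 7 rises and 3 falls for the transporters, 7 and 0 for the m6A writers and 6 and 4 for arginine methylation.

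Over the 15 lists, with the members left out, 47 of 142 tested genes rose and 67 fell, at a median log2 fold change of -0.09. Among all tested genes 35.4% rose and 35.1% fell, and the lists were written with earlier results of these data known. Without a scaling factor 64 rose and 49 fell, and the median turned to 0.11, so the balance of directions over these pathways depends on the scaling. Among the members, the falls of MAT2A, NNMT and AHCY kept sign and call without a scaling factor, and the fall of MTR kept its sign only. That setting shifts the median gene upwards, so it cannot test the rise of AHCYL2, whose call was lost in other alternatives.

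**Figure D5:**
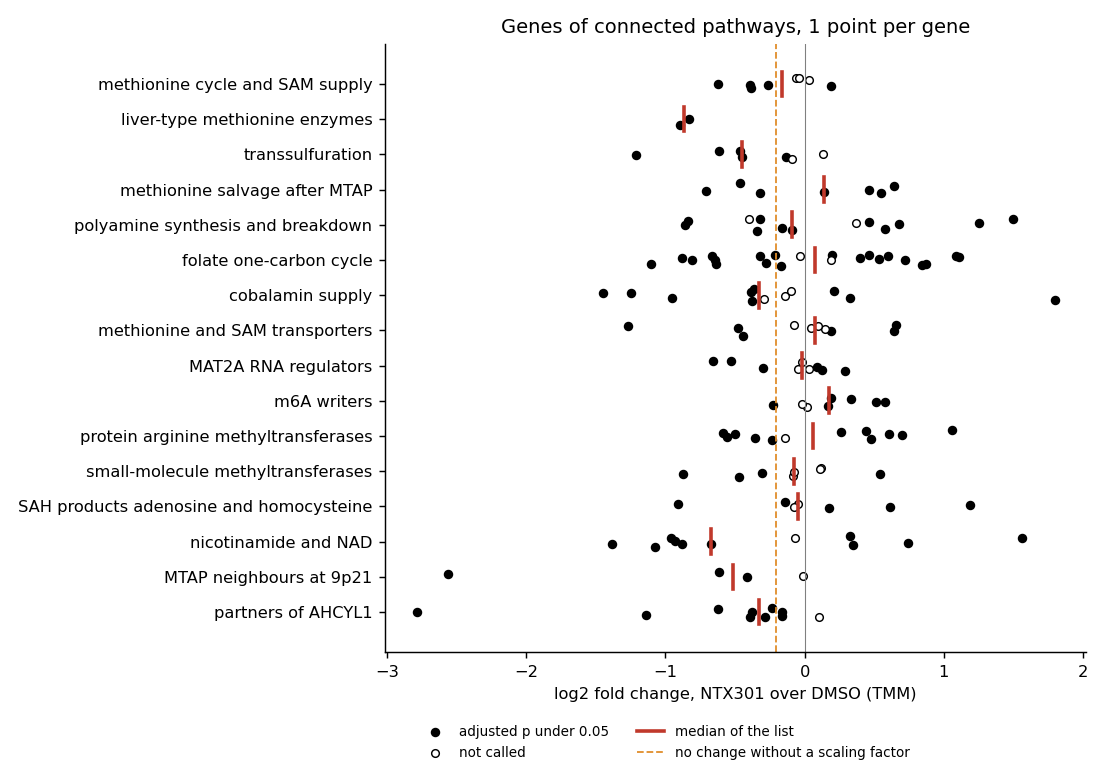
Log2 fold change of each tested gene, NTX301 over DMSO with TMM factors, by list; filled points passed an adjusted p of 0.05, red bars are list medians, and the orange line marks genes with no change when no scaling factor is used. The members lie between -0.63 and 0.19, while genes of connected lists reach from -2.79 (SLC4A4) to 1.80 (CUBN).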

How the data were processed

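RNA sequencing of OVCAR5 cells with NTX301 (100 nM) or DMSO for 3 days gave 3 libraries a group, taken with their replicate numbers from the labels. The labels' protocols name extraction with TRI Reagent and a NEBNext Ultra II RNA kit. A 10 nM dose and methylation arrays named there were not analysed here. The authors deposited 1 gene table per library with expected counts, TPM and lengths, in the column layout of RSEM, per the file headers. The expected counts that the authors deposited are estimates of reads per gene without normalization, and the deposited TPM values are scaled by the authors over all genes of a table. The lengths that the authors deposited, per the file headers, are weighted over transcripts. Not given in the sources used here are tool versions, genome build, annotation release and strand setting. Gene length exceeded effective length by 74 bases in all genes over 500 bases.

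Identifiers matched symbols for 62639 of 62656 genes, and 58220 matched a GENCODE 29 (GRCh38) position. Copies of genes on chromosome Y were added to their X copies. Counts were rounded and tested with edgeR 4.0.16 (R 4.3.3): filterByExpr, TMM, glmQLFit and glmQLFTest with treatment as the only term, Benjamini-Hochberg over 19029 genes, threshold 0.05. CPM values are rounded counts scaled with TMM factors (1.07 to 1.08 for NTX301, 0.92 to 0.94 for DMSO). The fit was checked on simulated counts in which few genes changed, with rises and falls in balance. Most genes were called in these data, so that check does not cover the choice of scaling. Library pairs within a group differed beyond sampling noise, so none was counted as a duplicate. Alternatives used DESeq2 1.42.0 and limma 3.58.1 (voom, and on log2(TPM + 1) and log2(TPM + 0.1)). Lengths were compared with exact permutation tests. Intervals of precision are replicate SDs and SEs, and counting limits are 3 counts over a group.

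The members and the 15 lists were chosen with earlier results of these data known. Named besides the members are CDKN2A, CDKN2B, CDKN2B-AS1, MAT1A and BHMT, and of each list genes from the 2 largest rises and 2 largest falls among those called that average at least 1 CPM, and the 3 genes (at least 10 CPM) nearest to MAT2A. Named outside this rule, after their values were seen, are METTL16, AMD1, SRM, SMS, genes and pseudogenes beside MTAP, genes that overlap a member, and cell type markers. RefSeq promoters (GRCh38.p14) matched 7 of the 9 members.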

Additional observations from a re-analysis of the deposited data

How the results depend on the processing

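Direction and call held for MAT2A, AHCY and NNMT under every alternative run, with log2 fold changes of -0.68 to -0.42, -0.48 to -0.17 and -0.47 to -0.19. Unscaled libraries and TPM shift the median gene upwards. Without a scaling factor, on log2(TPM + 1) and on log2(TPM + 0.1), in this order, 4, 4 and 4 members rose, MAT2B turned to 0.15, 0.16 and 0.16, AHCYL1 turned to 0.17, 0.15 and 0.16, MTRR was called at 0.24, 0.23 and 0.24, and MTR lost its call at -0.055, -0.041 and -0.044. NT5E turned to 0.064, 0.038 and 0.038, and PIK3C3 on both TPM scales to 0.0089 and 0.0099, not called. On the TPM scales 4318 and 4297 of all genes fell, and 40 and 41 of the list genes. AHCYL2 lost its call in DESeq2 (0.19) and without a filter on low counts (0.16), where 0 members rose in each, and ranged from 0.11 to 0.22 when single libraries were left out, where 0 to 1 members rose. The cause of these changes was not tested beyond the shift of the median.

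Whether replicate numbers pair the libraries was not settled: the deviations of same-numbered libraries correlated at 0.106, 0.003 and 0.074. NTX301 replicates 1 and 3 correlated best with their own number, and replicate 2 with another (0.007). With a replicate block 6837 genes rose and 6749 fell, and no member call changed. Every tested member had a smaller SE with the block, as for MAT2B (0.038 against 0.059, edgeR). Of the 50 list genes that the naming rule picked, 45 to 50 kept direction and call under each alternative. Precision is limited by 3 libraries a group, and MTAP by counts at the limit of detection.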
